A study of Mus musculus with 6 samples.

Results

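The 38 genes described here encode the cytosolic tRNA synthetases (20 genes), regulators and effectors of the ATF4 pathway (9), enzymes of serine and one-carbon synthesis (7) and enzymes of proline synthesis (2). They were found by their symbols among 23238 gene symbols counted in each library, and all 38 were present. The rule that selects them is a list of gene names.

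Mouse embryonic stem cells of the 129/Ola strain were used, as stable lines made from cells labelled Niwa. The 3 EWS-OCT4 libraries are from a line that carries EWS-OCT4A fused to GFP, in which the Ewing sarcoma protein EWS is joined to an isoform of the pluripotency factor OCT-4. The 3 EGFP libraries are from the control line, which carries the fluorescent protein alone. Both lines grew in stem cell medium with LIF and received doxycycline at 1 µg/ml, which lowers the cells' own OCT-4, so the controls shared this loss. No library without doxycycline is analysed here, and which line moved from its earlier state cannot be told. The fusion is confounded with anything else in which the lines differ, and whether a line is 1 clone is not given. The labels do not say whether replicate libraries are separate cultures, so the p-values cover only library-to-library spread, which may be technical.

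Aminoacyl-tRNA synthetases attach each amino acid to its tRNA. In the cytosol several of them are bound in a multi-synthetase complex, and phenylalanine is charged by an enzyme with an alpha subunit (Farsa) and a beta subunit (Farsb). When amino acids run short, when proteins misfold in the endoplasmic reticulum or when haem is lacking, eIF2 kinases phosphorylate the translation factor eIF2, which slows most protein synthesis but favours translation of the transcription factor ATF4. ATF4 binds composite elements together with C/EBP proteins and induces genes for amino acid uptake and synthesis, one-carbon metabolism and tRNA charging, as well as CHOP (Ddit3) and other stress genes. This programme is the integrated stress response. Because ATF4 is controlled largely by translation, the RNA level of Atf4 is not a measure of its protein.

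Levels are CPM, which are counts relative to library size after TMM scaling, from a kit that reads transcript 3′ ends. A fold change is EWS-OCT4 over EGFP. Library totals ran from 10978025 to 12281444 counts in the EWS-OCT4 line and from 13239383 to 14935887 in the EGFP line, so that 1 count stood for 0.0650 to 0.0924 CPM. The lines differed in their cell type markers. All 12 stem cell markers were higher in the EWS-OCT4 line, with summed levels of 6081 to 6604 CPM against 467 to 627 CPM in the EGFP line. All 15 trophoblast markers were lower, with sums of 259 to 293 CPM in the EWS-OCT4 line against 8932 to 9870 CPM in the EGFP line, and Plac1, Prl3d1 and Tpbpa had no count in EWS-OCT4 libraries. Of 8 primitive endoderm markers 7 were tested, 2 higher and 5 lower, with sums of 184 to 256 CPM in the EWS-OCT4 line against 475 to 707 CPM in the EGFP line. Fibroblast markers summed to 23.3 to 29.0 CPM in the EWS-OCT4 line against 15.2 to 17.97 CPM in the EGFP line. Of 8 markers 6 were tested, with 1 higher, 1 lower and 4 that did not pass. Most of the EWS-OCT4 sum was from the 1 higher, Thy1, with a mean of 17.9 CPM in that line against 0.636 CPM in the EGFP line. The 1 lower, Postn, had no count in EWS-OCT4 libraries. The part of cell type in the results below was not tested, and in bulk libraries fewer cells of a type and less RNA per cell cannot be told apart. Pou5f1, which encodes OCT-4, stood at 2.21 ± 0.720 CPM in the EWS-OCT4 line and 0.645 ± 0.270 CPM in the EGFP line (SD, n = 3 each), and reads of the construct and of the cells' own gene could not be separated. In each line the library numbered 3 stood apart from the other pair: the chi-square per degree of freedom between libraries 1 and 2 was 4.21 in the EWS-OCT4 line and 3.96 in the EGFP line, whereas pairs with library 3 gave 32.0 and 32.3 in the EWS-OCT4 line and 23.7 and 25.05 in the EGFP line.

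Most of the 38 genes were higher in the EWS-OCT4 line. Every one of them passed the filter on low counts, 28 were higher and 1, Cebpb, was lower (edgeR quasi-likelihood test, Benjamini-Hochberg adjusted p under 0.05), while 9 did not pass. Of all 13467 genes tested, 67.4% were called, 33.3% higher and 34.1% lower, so a call in this comparison was common and the members stood at 73.7% higher. Their median log2 fold change was 0.94, against -0.0042 over all genes tested, and it ranged from -3.21 for Cebpb to 6.04 for Chac1. A rise of at least 2-fold was called for 18 members, against 21.8% of all genes tested. In 29 of the 38 members the 3 libraries of one line all lay above those of the other. The share over all genes tested was 72.7%, so such a gap was common in itself. The EWS-OCT4 line was on top in 28 of the 29 members, and in 4849 of the 9795 separated genes among all tested. The other 9 members overlapped, and these were the 9 that did not pass.

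**Figure D1:**
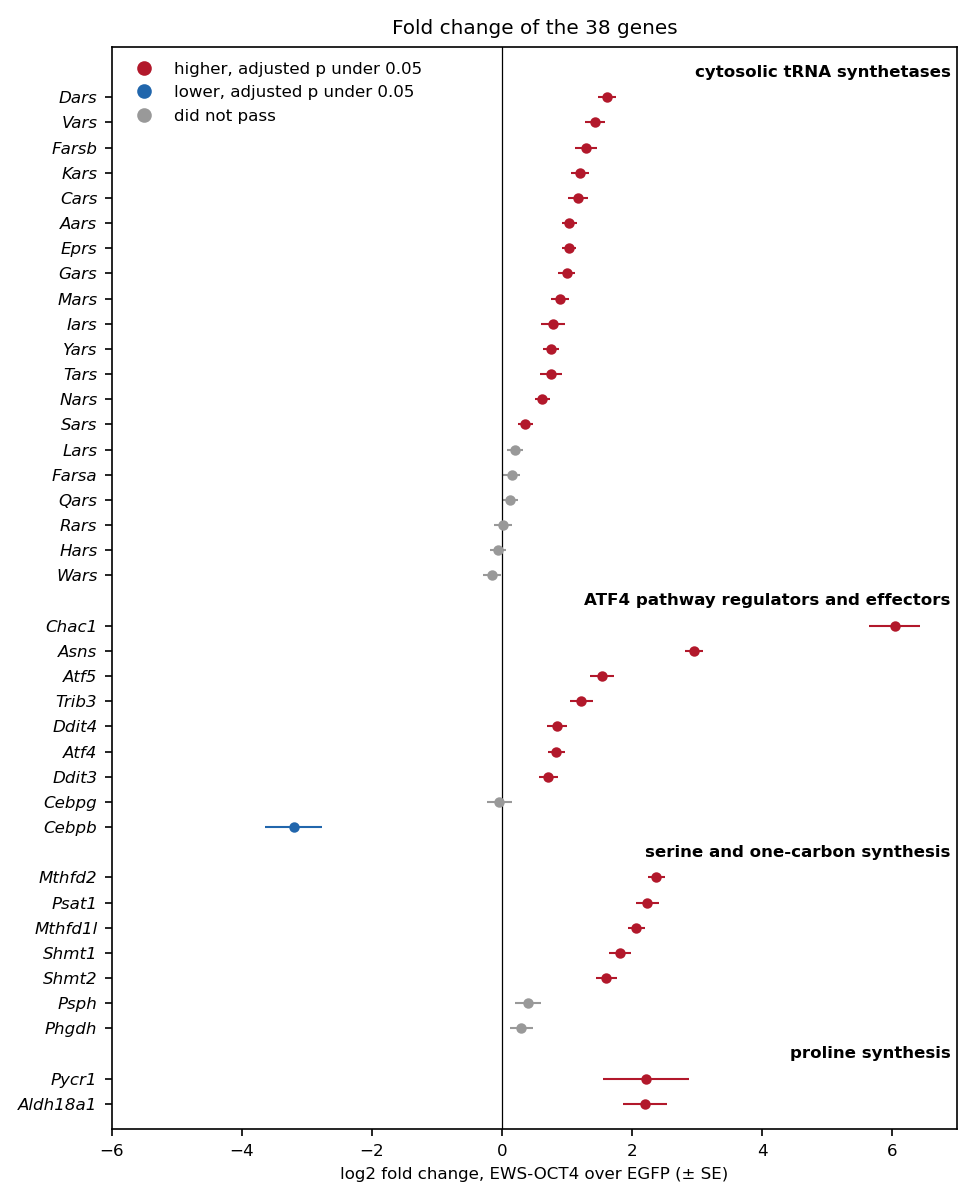
Log2 fold change of each of the 38 genes, EWS-OCT4 over EGFP (horizontal axis), by group of genes, with bars for the SE of the fit over 3 libraries a line. Red points were higher, the blue point lower, and grey points did not pass; the 28 red points lie right of 0, Chac1 the farthest at 6.04, and Cebpb is the only blue point, at -3.21.

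Of the 20 cytosolic synthetases, 14 were higher in the EWS-OCT4 line and 6 did not pass. None was called lower by the edgeR test, also at an unadjusted p under 0.05, or by DESeq2 or limma-voom. Their median log2 fold change was 0.77, and 7 rose at least 2-fold. Summed over the 20, the synthetases stood at 4989.7 to 5625 CPM in the EWS-OCT4 line against 3056 to 3398 CPM in the EGFP line.

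The largest rise was that of Dars, the aspartate enzyme (chr1:128363707-128417368 in mm10, minus strand). It had 141, 149 and 168 CPM in EWS-OCT4 libraries against 45.9, 46.2 and 56.9 CPM in EGFP libraries, a 3.08-fold difference (log2 1.62, SE 0.14, adjusted p = 4.5e-06). Every EWS-OCT4 library was above every EGFP library, as it was for the next 5. Vars, the valine enzyme (chr17:35000987-35016322, plus strand), had 129, 134 and 129 CPM in EWS-OCT4 libraries against 46.4, 40.8 and 58.3 CPM in EGFP libraries (2.69-fold, adjusted p = 1.9e-05). Farsb, the beta subunit of the phenylalanine enzyme (chr1:78417975-78488897, minus strand), had 502, 493 and 758 CPM in EWS-OCT4 libraries against 229.8, 241 and 247 CPM in EGFP libraries (2.44-fold, adjusted p = 8.0e-05). Within the EWS-OCT4 line it was library 3 that was high for Farsb, while the EGFP libraries lay close together. Kars, which charges lysine (chr8:111993443-112011323, minus strand), had 367, 465 and 355 CPM in EWS-OCT4 libraries against 176, 159 and 183 CPM in EGFP libraries (2.29-fold, adjusted p = 3.0e-05). Cars, which charges cysteine (chr7:143557230-143600090, minus strand), had 75.5, 84.7 and 85.3 CPM in EWS-OCT4 libraries against 36.2, 30.8 and 42.3 CPM in EGFP libraries (2.24-fold, adjusted p = 8.2e-05). For both, the gap between the lines was wider than the range within either line. Aars, which charges alanine (chr8:111033144-111057664, plus strand), had 266, 273 and 291 CPM in EWS-OCT4 libraries against 134, 129 and 142 CPM in EGFP libraries (2.05-fold, adjusted p = 1.8e-05).

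The other 8 synthetases that rose were Eprs, Gars, Mars, Iars, Yars, Tars, Nars and Sars, with log2 fold changes from 1.04 for Eprs to 0.36 for Sars. Sars, the serine enzyme, had the smallest called change (adjusted p = 0.0170). It did not pass without EGFP replicate 1 or without EGFP replicate 2 (adjusted p = 0.0723 and 0.0730).

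The 6 synthetases that did not pass were Farsa, Hars, Lars, Qars, Rars and Wars, for phenylalanine, histidine, leucine, glutamine, arginine and tryptophan. Farsa had 468, 476 and 613 CPM in EWS-OCT4 libraries against 476, 485 and 443 CPM in EGFP libraries (log2 0.15, adjusted p = 0.335). Lars had 205, 205 and 202 CPM in EWS-OCT4 libraries against 161, 166 and 203 CPM in EGFP libraries (log2 0.21, adjusted p = 0.162). For Farsa EWS-OCT4 replicate 3 was the highest library. For Lars EGFP replicate 3 was level with the EWS-OCT4 libraries, and the gene passed without it. Qars had 193, 215 and 195 CPM in EWS-OCT4 libraries against 185, 167 and 201 CPM in EGFP libraries (log2 0.13, adjusted p = 0.371). Rars had 163, 142 and 165 CPM in EWS-OCT4 libraries against 142, 139 and 183 CPM in EGFP libraries (log2 0.02, adjusted p = 0.907). Neither gene showed a gap between the lines. Hars had 98.1, 87.0 and 80.4 CPM in EWS-OCT4 libraries against 94.7, 88.4 and 94.2 CPM in EGFP libraries (log2 -0.06, adjusted p = 0.671). Wars had 35.2, 37.0 and 42.0 CPM in EWS-OCT4 libraries against 41.2, 40.5 and 45.4 CPM in EGFP libraries (log2 -0.15, adjusted p = 0.357). Wars and Hars were the synthetases with a fitted value below 0.

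The phenylalanine enzyme needs both subunits, and their RNAs moved unequally. The ratio of Farsb to Farsa within a library was 1.07, 1.04 and 1.24 in EWS-OCT4 libraries against 0.483, 0.497 and 0.557 in EGFP libraries. The libraries did not overlap, but 3 against 3 cannot give an exact 2-sided permutation p under 0.10, which is the value found (0.167 after adjustment over the 5 ratios computed). This pair and Mthfd2 with Mthfd1 were chosen after their values were seen. Ratios of counts between genes also carry differences in how well each 3′ end is captured. Whether these were the same in both lines was not tested. Of the 8 synthetases of the multi-synthetase complex (Dars, Eprs, Iars, Kars, Lars, Mars, Qars and Rars) 5 rose and 3 did not pass, and of the 12 others 9 rose and 3 did not pass.

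Most of the 9 ATF4 pathway genes were also higher in the EWS-OCT4 line: 7 rose, Cebpb fell and Cebpg did not pass. Their median log2 fold change was 0.85, and their summed level was 1199 to 1386 CPM in the EWS-OCT4 line against 639 to 728 CPM in the EGFP line. Atf4 itself (chr15:80255184-80257541, plus strand) had 531, 581.9 and 677 CPM in EWS-OCT4 libraries against 340.0, 368 and 295 CPM in EGFP libraries. The difference was 1.78-fold (log2 0.84, SE 0.13, adjusted p = 0.000304), with no overlap. Atf5, a related bZIP factor whose translation is also raised when eIF2 is phosphorylated (chr7:44812256-44816658, minus strand), had 34.96, 44.5 and 50.04 CPM in EWS-OCT4 libraries against 13.1, 16.5 and 15.1 CPM in EGFP libraries (2.90-fold, adjusted p = 4.2e-05). Ddit3, which encodes CHOP (chr10:127290774-127296288, plus strand), had 128, 136 and 164 CPM in EWS-OCT4 libraries against 81.4, 79.1 and 101 CPM in EGFP libraries (1.64-fold, adjusted p = 0.00168). All 3 factors were separated between the lines, Atf5 by the widest margin relative to its level.

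The RNAs of the C/EBP genes among the members, Cebpb and Cebpg, did not share this direction. Cebpb (chr2:167688915-167690418, plus strand) had 11.1, 13.8 and 3.19 CPM in EWS-OCT4 libraries against 95.7, 107 and 54.95 CPM in EGFP libraries. It was 9.23-fold lower (log2 -3.21, SE 0.44, adjusted p = 0.000107), and library 3 was the lowest of its line in both lines. Cebpg (chr7:35046422-35056573, minus strand) had 53.7, 48.5 and 33.4 CPM in EWS-OCT4 libraries against 50.5, 49.7 and 39.2 CPM in EGFP libraries (log2 -0.04, adjusted p = 0.864). The ratio of Cebpg to Cebpb was therefore 4.85, 3.52 and 10.5 in EWS-OCT4 libraries against 0.528, 0.465 and 0.714 in EGFP libraries (exact permutation p = 0.10, adjusted 0.167). The lines did not overlap in this ratio.

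Among the effectors, Chac1, which degrades glutathione, had the largest fold change of the 38 genes (chr2:119351229-119354381, plus strand). It had 132, 142 and 158 counts in EWS-OCT4 libraries against 1, 4 and 3 counts in EGFP libraries, or 12.2, 13.1 and 13.3 CPM in the EWS-OCT4 line against 0.0746, 0.281 and 0.195 CPM in the EGFP line. The fitted difference was 65.9-fold (log2 6.04, SE 0.40, adjusted p = 6.9e-07), and its size rests on 8 counts in the EGFP line. Asns, asparagine synthetase (chr6:7675169-7693254, minus strand), had 278, 321 and 269 CPM in EWS-OCT4 libraries against 35.6, 35.6 and 40.7 CPM in EGFP libraries (7.75-fold, log2 2.95, SE 0.13, adjusted p = 6.6e-08). Trib3, a pseudokinase that restrains ATF4 (chr2:152337422-152344032, minus strand), had 32.3, 32.0 and 32.2 CPM in EWS-OCT4 libraries against 14.99, 11.0 and 15.3 CPM in EGFP libraries (2.33-fold, adjusted p = 0.000154). In these genes each EWS-OCT4 library exceeded each EGFP library by more than the range within a line. Ddit4, an inhibitor of the growth kinase complex mTORC1 (chr10:59949669-59951834, minus strand), had 118, 108 and 144 CPM in EWS-OCT4 libraries against 66.5, 61.2 and 77.4 CPM in EGFP libraries (1.80-fold, adjusted p = 0.000647).

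**Figure D2:**
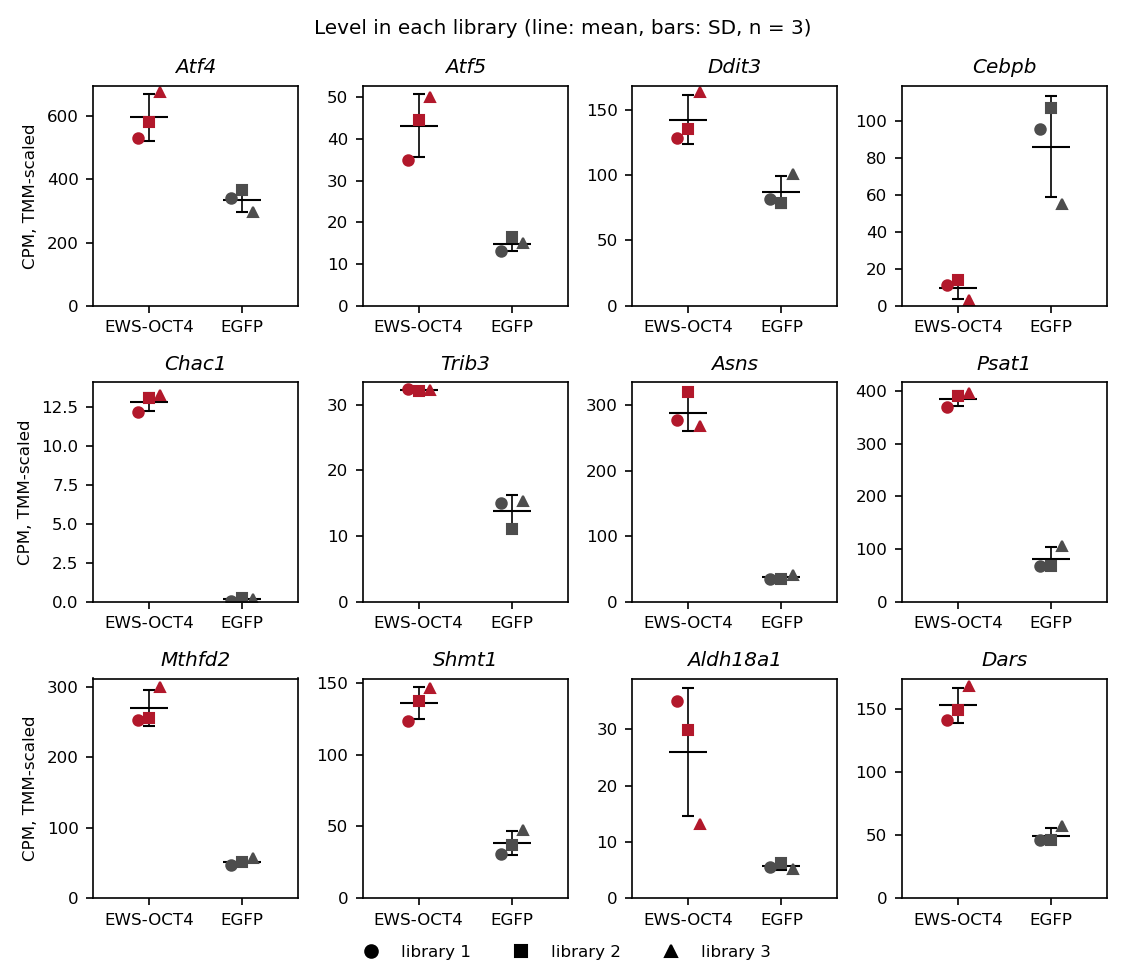
Level in CPM (vertical axis, linear, from 0) in each of the 6 libraries for 12 of the genes, EWS-OCT4 left and EGFP right. The 12 were picked from the 29 genes that were called, and the 9 that overlapped are not shown, so the gap in every panel follows from this choice. Symbols mark library numbers 1, 2 and 3, horizontal lines the mean and bars the SD (n = 3); the lines are apart in every panel, with Cebpb the one gene lower in EWS-OCT4, and library 3 is low for Aldh18a1 and Cebpb in the EWS-OCT4 line.

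ATF4 binds with C/EBP partners at a composite element that can hold TGATGNAA, known for the amino acid response of Asns among others. This motif was searched on both strands in RefSeq promoter windows of GRCm38.p6, from 250 bases before to 50 bases after each annotated start. Of all 32851 windows 1304 held it (3.97%). Of tested genes with a window, 279 of 10162 held it (2.75%). A window was matched for 31 of the 38 members, and 9 of them held the motif (29.0%): Aars, Gars, Iars, Tars, Yars, Asns, Chac1, Trib3 and Pycr1. These are 5 of 13 matched synthetases, 3 of 9 ATF4 pathway genes, 0 of 7 serine and one-carbon genes and 1 of 2 proline genes. All 9 were called higher, among 25 matched members called higher, and 0 of the 6 matched members not called higher held the motif. The other 7 members were not matched. Of these, Cars, Nars and Vars were called higher, and Hars, Lars, Rars and Wars did not pass. The 6 are thus few and lack several of the genes not called higher. Whether the motif goes with the rise was not tested. A match is a description of the letters, and binding was not measured.

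The motif is printed for the 6 genes with the largest rise among those that hold it, each on its gene's strand with the match in capitals. A match on the opposite strand reads as its reverse complement. The Chac1 stretch lies at chr2:119350992-119351116 with the match starting 193 bases before the start, that of Asns at chr6:7693180-7693292 with 23 bases, and that of Pycr1 at chr11:120643784-120643911 with 103 bases. For Trib3 (chr2:152344031-152344106) the match begins at base 15 of the transcript. Aars holds a match 112 bases before the start (chr8:111033670-111033797) and another from base 10 of the transcript (chr8:111033791-111033871), and Gars holds one 30 bases before it (chr6:55037911-55038030).
Chac1: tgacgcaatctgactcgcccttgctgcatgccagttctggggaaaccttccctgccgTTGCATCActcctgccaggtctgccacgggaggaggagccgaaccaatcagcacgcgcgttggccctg
Asns: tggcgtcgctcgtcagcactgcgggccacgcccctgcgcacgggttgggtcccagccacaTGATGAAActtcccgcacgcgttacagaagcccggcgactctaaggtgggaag
Pycr1: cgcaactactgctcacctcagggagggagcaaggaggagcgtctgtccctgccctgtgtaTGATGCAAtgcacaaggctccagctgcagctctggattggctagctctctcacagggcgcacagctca
Trib3: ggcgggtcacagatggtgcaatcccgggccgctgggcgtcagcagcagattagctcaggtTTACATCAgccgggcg
Aars before the start: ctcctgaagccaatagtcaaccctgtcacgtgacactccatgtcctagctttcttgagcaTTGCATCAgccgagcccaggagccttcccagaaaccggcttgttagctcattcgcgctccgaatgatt
Aars after the start: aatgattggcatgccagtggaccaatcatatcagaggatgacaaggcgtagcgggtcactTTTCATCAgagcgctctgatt
Gars: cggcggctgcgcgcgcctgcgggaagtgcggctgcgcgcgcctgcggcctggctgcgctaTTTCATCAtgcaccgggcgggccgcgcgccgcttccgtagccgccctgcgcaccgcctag
Of these 7 matches those of Asns and Pycr1 read on the gene's strand and the other 5 on the opposite strand. Seen with their values, Chac1 and Asns head the ATF4 pathway genes in fold change, whereas Aars and Gars, at 2.05-fold and 1.99-fold, stand below Dars, the synthetase that rose most, whose windows held no match.

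**Figure D3:**
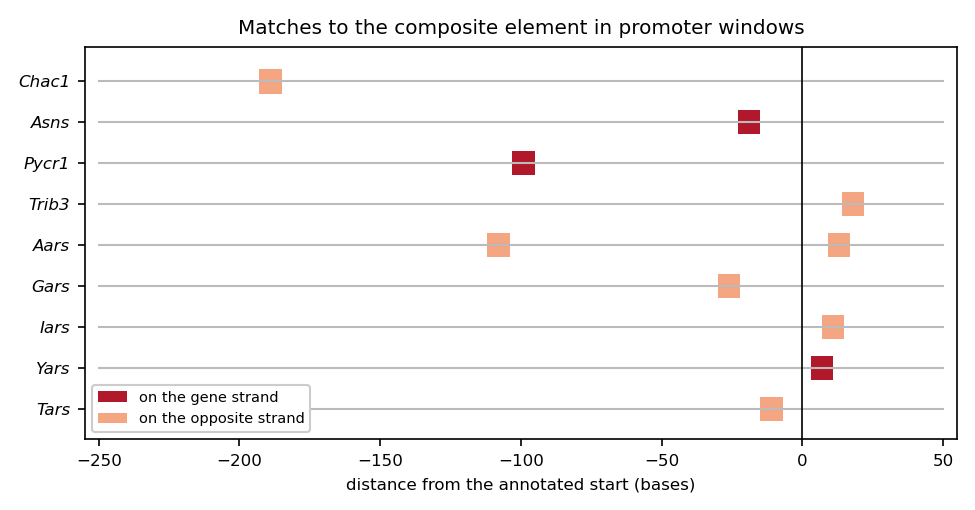
Position of each match to the motif in the promoter windows of the 9 genes that hold one, as distance in bases from the annotated start (vertical line), with genes ordered by fold change. Dark red marks a match on the gene's strand and light orange one on the opposite strand; matches lie from 193 bases before the start, in Chac1, to the first transcribed bases, and Aars holds 2.

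Of the 7 serine and one-carbon genes 5 rose, each at least 2-fold, and 2 did not pass. The group's median log2 fold change was 1.82 and its summed level was 1238 to 1367 CPM in the EWS-OCT4 line against 327 to 404 CPM in the EGFP line. Serine is made from a glycolytic intermediate by Phgdh, Psat1 and Psph in turn, and the middle step stood apart from its neighbours. Psat1 (chr19:15904678-15947337, minus strand) had 369, 389.8 and 396 CPM in EWS-OCT4 libraries against 68.9, 68.7 and 107 CPM in EGFP libraries (4.72-fold, log2 2.24, SE 0.18, adjusted p = 2.6e-06). Phgdh (chr3:98313170-98339990, minus strand) had 49.1, 51.4 and 34.0 CPM in EWS-OCT4 libraries against 34.6, 34.2 and 40.4 CPM in EGFP libraries (log2 0.30, adjusted p = 0.166). Psph (chr5:129765558-129787449, minus strand) had 59.6, 58.5 and 37.7 CPM in EWS-OCT4 libraries against 43.2, 42.8 and 32.5 CPM in EGFP libraries (log2 0.40, adjusted p = 0.107). For both, EWS-OCT4 replicates 1 and 2 lay above all EGFP libraries and replicate 3 did not. Without EWS-OCT4 replicate 3 both passed. Phgdh has 13 other genes with a near-identical 3′ end (at least 95% identity), and Psat1 and Psph have none. How far this moves the values of Phgdh, and so its contrast with Psat1, was not tested.

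The enzymes that pass the carbon of serine to folate rose in both the cytosol and the mitochondrion. Shmt1, the cytosolic serine hydroxymethyltransferase (chr11:60788104-60811718, minus strand), had 124, 138 and 146 CPM in EWS-OCT4 libraries against 30.5, 37.3 and 47.6 CPM in EGFP libraries (3.53-fold, adjusted p = 9.0e-06). Its mitochondrial counterpart Shmt2 (chr10:127517123-127522444, minus strand) had 108, 104 and 137 CPM in EWS-OCT4 libraries against 38.3, 33.3 and 43.0 CPM in EGFP libraries (3.04-fold, adjusted p = 1.2e-05). The ratio of Shmt2 to Shmt1 overlapped between the lines, at 0.872, 0.758 and 0.936 in EWS-OCT4 libraries against 1.26, 0.893 and 0.903 in EGFP libraries (exact permutation p = 0.40, adjusted 0.50). Mthfd2, the mitochondrial methylenetetrahydrofolate dehydrogenase (chr6:83305691-83325908, minus strand), had 254, 256 and 299 CPM in EWS-OCT4 libraries against 47.4, 51.8 and 56.4 CPM in EGFP libraries (5.20-fold, log2 2.38, SE 0.13, adjusted p = 2.3e-07). Mthfd1l, which makes formate in the mitochondrion (chr10:3973118-4167081, plus strand), had 275, 279 and 317 CPM in EWS-OCT4 libraries against 63.6, 67.1 and 77.2 CPM in EGFP libraries (4.19-fold, log2 2.07, SE 0.13, adjusted p = 4.8e-07). These 4 genes were separated between the lines in every library. The ratio of Mthfd2 to the cytosolic enzyme Mthfd1 was 1.56, 1.57 and 2.72 in EWS-OCT4 libraries against 0.689, 0.709 and 0.578 in EGFP libraries (exact permutation p = 0.10, adjusted 0.167), with no overlap.

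Both genes of proline synthesis were higher, but with a wide spread in EWS-OCT4 libraries, and Pycr1 was at low counts. Aldh18a1, which makes the precursor of proline from glutamate (chr19:40550257-40588463, minus strand), had 35.1, 29.8 and 13.3 CPM in EWS-OCT4 libraries against 5.52, 6.31 and 5.14 CPM in EGFP libraries (4.60-fold, log2 2.20, SE 0.33, adjusted p = 0.000219). Pycr1, a mitochondrial enzyme of the last step (chr11:120635712-120643769, minus strand), had 26, 22 and 10 counts in EWS-OCT4 libraries against 4, 2 and 10 counts in EGFP libraries. That is 2.40, 2.03 and 0.840 CPM in the EWS-OCT4 line and 0.298, 0.140 and 0.650 CPM in the EGFP line (log2 2.22, SE 0.66, adjusted p = 0.0127). EWS-OCT4 replicate 3 was the lowest of its line for both genes, and for Pycr1 it was close to EGFP replicate 3, the highest of its own. Pycr1 did not pass without EWS-OCT4 replicate 1 (adjusted p = 0.0579) or without EGFP replicate 2 (adjusted p = 0.0550), and its log2 fold change was 2.95 without EGFP replicate 3.

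Related lists of genes were counted in the same test, in which 33.3% of all genes tested were higher and 34.1% lower. Of 17 mitochondrial tRNA synthetases 7 rose (41.2%), 1 fell (5.88%) and 9 did not pass, with a median log2 fold change of 0.24. Those that rose most were Cars2 (log2 1.14), Iars2 (0.84) and Aars2 (0.70), for cysteine, isoleucine and alanine. The 1 that fell, Wars2, did so at log2 -0.92 (adjusted p = 0.0333) and did not pass when EWS-OCT4 replicate 1 or 2 or any EGFP library was left out, and 4 rose without EGFP replicate 2. Of the 3 scaffold genes of the multi-synthetase complex, Aimp2 (log2 0.91) and Aimp1 (0.52) rose, and Eef1e1 did not pass at log2 -0.18.

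A further list held 16 genes for eIF2, its kinases, its phosphatase subunits and its exchange factor eIF2B. Of these 3 rose, 9 fell and 4 did not pass, with a median of -0.51, against 33.3% higher and 34.1% lower among all genes tested. Without EGFP replicate 1 or without EGFP replicate 2 the falls were 6, and in the test against a 1.5-fold change 4. Eif2ak3, which encodes PERK, the kinase that responds to misfolded proteins in the endoplasmic reticulum, had 11.6 ± 2.27 CPM in the EWS-OCT4 line and 56.5 ± 16.5 CPM in the EGFP line (SD, n = 3 each; log2 -2.29, adjusted p = 2.4e-05). Ppp1r15a, the inducible phosphatase subunit that reverses the response, had 29.7 ± 7.47 CPM in the EWS-OCT4 line and 76.8 ± 17.1 CPM in the EGFP line (log2 -1.37, adjusted p = 0.000403). The third fall named is that of Eif2b1, an eIF2B subunit (log2 -1.21). The rises were those of Eif2ak1, the haem-regulated kinase (log2 0.82), Gcn1l1, which helps activate the amino acid sensor GCN2 (0.81), and Eif2b3 (0.57). Eif2ak4, which encodes GCN2 itself, did not pass (log2 0.38, adjusted p = 0.0712). The remaining kinase gene, Eif2ak2, was lower (log2 -1.07, adjusted p = 0.00119). Phosphorylation of eIF2 was not measured. Of 18 genes of the ATF6 and XBP1 arms of the unfolded protein response 3 rose, 10 fell and 5 did not pass, with a median of -0.65. Ern1, which encodes IRE1 (log2 -2.29), and the chaperone cofactors Dnajb9 (-1.80) and Dnajc3 (-1.21) fell, and Sdf2l1 (1.65), Herpud1 (1.14) and Pdia4 (0.74) rose. The count of rises was 5 without EGFP replicate 3, and in the libraries numbered 1 and 2 alone 7 rose and 10 fell.

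Of 24 other genes known as ATF4 targets 22 were tested. Of these 11 rose (50%), 5 fell (22.7%) and 6 did not pass, with a median of 0.54. Over all genes tested, 33.3% were higher and 34.1% lower. Slc7a3, a carrier of cationic amino acids, had 91.4 ± 12.6 CPM in the EWS-OCT4 line and 1.14 ± 0.289 CPM in the EGFP line (SD, n = 3 each; log2 6.31, adjusted p = 2.4e-08). The stress cytokine gene Gdf15 had 36.1 ± 4.07 CPM in the EWS-OCT4 line and 4.13 ± 0.907 CPM in the EGFP line (log2 3.13, adjusted p = 1.0e-06). Pck2, the mitochondrial phosphoenolpyruvate carboxykinase, had 30.8 ± 2.43 CPM in the EWS-OCT4 line and 4.10 ± 2.27 CPM in the EGFP line (log2 2.90, adjusted p = 3.3e-05). Against this direction, the stress factor gene Atf3 had 1.15 ± 0.451 CPM in the EWS-OCT4 line and 29.8 ± 7.41 CPM in the EGFP line (log2 -4.70, adjusted p = 1.1e-06). Vldlr (log2 -1.79) and Ppp1r15a, counted in this list too, also fell. Slc7a11 and Fgf21 were too low to test.

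Of 19 other folate and one-carbon genes 18 were tested, 6 rose (33.3%), 5 fell (27.8%) and 7 did not pass, with a median of 0.23. These shares were near those of all genes tested, at 33.3% higher and 34.1% lower. Mthfd2l, a mitochondrial relative of Mthfd2, had 17, 26 and 38 counts in EWS-OCT4 libraries against 0, 1 and 0 counts in EGFP libraries, or 104 times as many after scaling for depth (18.1 to 4151 in the exact 95% interval, which covers counting error only). The single EGFP count was in replicate 2, and without that library the ratio was at least 11.6, taking 3 counts in each EGFP library as the floor. Ahcy, which splits S-adenosylhomocysteine (log2 2.22), and Gcsh of the glycine cleavage system (1.75) rose. The falls named are those of Slc25a32, a mitochondrial folate carrier (-0.94, not called without EGFP replicate 1), and Mtfmt (-0.86). Of 8 other proline and glutamine genes 7 rose (87.5%) and 1 fell (12.5%), with a median of 0.76. With EWS-OCT4 replicate 2, EGFP replicate 1 or EGFP replicate 2 left out, 4 rose. The rises named are Prodh, which degrades proline (log2 1.16, adjusted p = 0.0319), and Glud1 (0.93). Prodh did not pass without EWS-OCT4 replicate 2 or 3 or EGFP replicate 1 or 2. The 1 gene called lower was Glul, glutamine synthetase (log2 -0.36, adjusted p = 0.0348), which did not pass when EWS-OCT4 replicate 2 or any EGFP library was left out, or when genes averaging under 10 CPM were left out of the test.

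**Figure D4:**
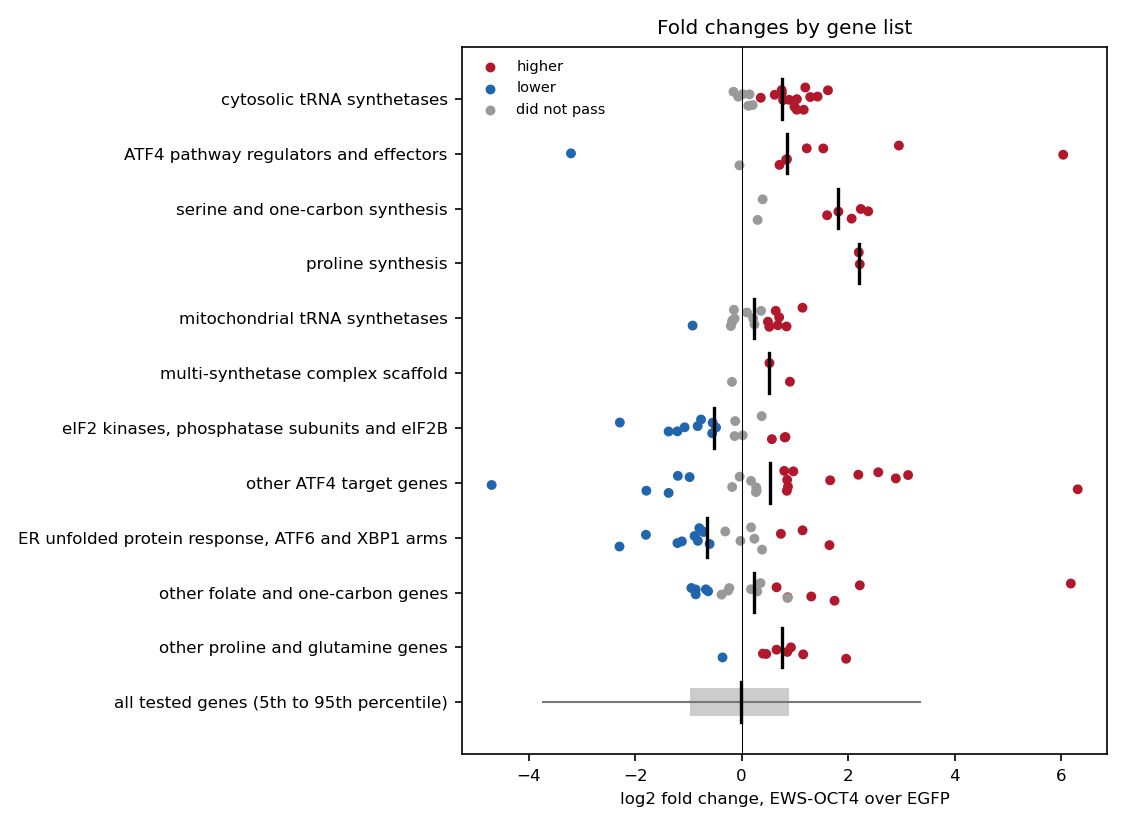
Log2 fold change of each tested gene, EWS-OCT4 over EGFP (horizontal axis), by list, with a black bar at each list's median. The lowest row shows all tested genes, with the box from the 25th to the 75th percentile and the line from the 5th to the 95th; medians of the 4 groups of members are 0.77, 0.85, 1.82 and 2.21, whereas those of the eIF2 and unfolded protein response lists are -0.51 and -0.65. Mthfd2l stands at its fitted value.

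Because library 3 stood apart in each line, the members were also fitted on the libraries numbered 1 and 2 alone. Their fold changes kept close to those from all libraries, with 33 of 38 called against 29. Calls were more common over all genes too, at 10240 of 13538 tested against 9073 of 13467 in all libraries. The added calls are therefore not particular to the members. All 29 were among the 33, and Lars, Phgdh, Psph and Qars passed as well (adjusted p = 0.00011, 0.000165, 0.000355 and 0.00919). The log2 fold change of Pycr1 was then 3.31 against 2.22 in all libraries, and that of Farsa was -0.0066 against 0.15. Relative to libraries 1 and 2, the members' median log2 level in library 3 differed by 0.11 in the EWS-OCT4 line and by 0.19 in the EGFP line, against 0.03 in the EWS-OCT4 line and 0.01 in the EGFP line for all tested genes. The proline pair was the exception, at -1.26 in the EWS-OCT4 line and 0.47 in the EGFP line.

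**Figure D5:**
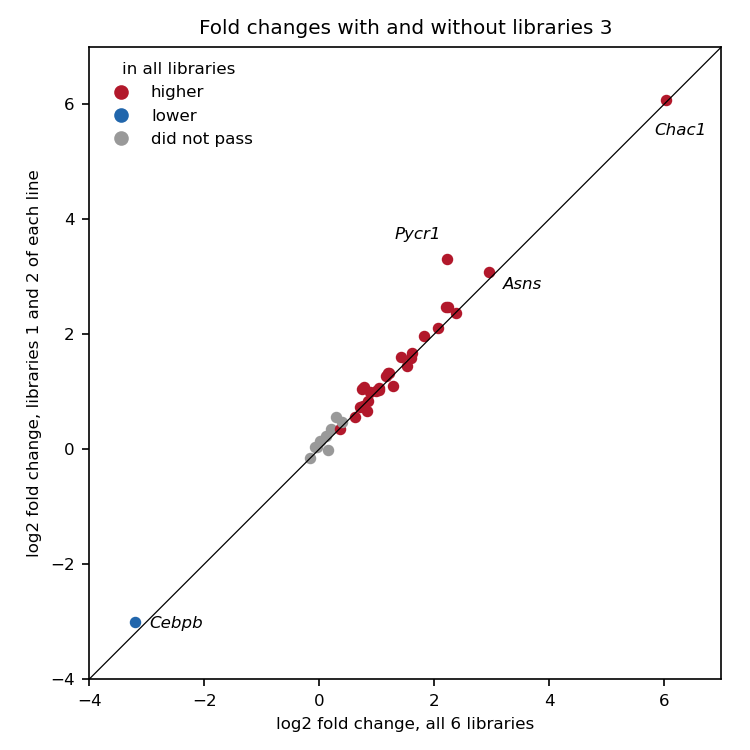
Log2 fold change of each of the 38 genes, EWS-OCT4 over EGFP, in all 6 libraries (horizontal axis) and in the libraries numbered 1 and 2 of each line alone (vertical axis), with the line of equal values. Points lie near the line from Cebpb at the lower left to Chac1 at the upper right, and Pycr1 lies above it, at 2.22 and 3.31.

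Some counts could hold reads of another gene, since the use of strand in counting is not given in the sources used here. In GENCODE M21, 7 members have another gene over the last 300 bases of their transcripts. Exosc6 lies on the same strand as Aars and was itself higher, at 120 CPM in the EWS-OCT4 line and 60.3 CPM in the EGFP line. On the opposite strand Mars and Ddit3 overlap each other's ends, and Shmt2 meets Ndufa4l2, at 18.3 CPM in the EWS-OCT4 line and 3.54 CPM in the EGFP line. Yars meets C77080, which was lower, at 34.8 CPM in the EWS-OCT4 line and 69.97 CPM in the EGFP line, while Farsb meets Sgpp2 and Shmt1 meets Smcr8, both of which did not pass. Among the related genes, Aimp2 and Eif2ak1 overlap each other's ends, and on the opposite strand Rab3gap2 lies over the end of Iars2, Naxd over that of Cars2, Tulp2 over that of Ppp1r15a and Dgcr6 over that of Prodh. Dgcr6 was itself higher, at 28.5 CPM in the EWS-OCT4 line and 11.5 CPM in the EGFP line, against 7.77 CPM in the EWS-OCT4 line and 3.47 CPM in the EGFP line for Prodh. Phgdh and Iars have near-identical 3′ ends elsewhere in the transcripts (at least 95% identity over at least 100 bases), as do Ahcy, Pck2, Mtfmt, Glud1, Glul and Dnajb9, so how their reads were divided is uncertain. How far these overlaps move the values was not tested.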

How the data were processed

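The authors deposited 1 file of raw counts per gene symbol for each of 6 libraries. Per the labels' protocols, Trizol RNA (500 ng) went into a Lexogen QuantSeq kit. The submitters' processing notes name Bowtie2, edgeR and mm10, without versions. For the counting tool, its annotation and its strand setting nothing is stated in the sources used here. Samples were grouped by their titles.

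Symbols on more than 1 line (35, on 79 lines) were summed. Counts were scaled by TMM and filtered with filterByExpr (minimum count 10, minimum total 15), leaving 13467 genes and 9771 untested. The lines were compared with edgeR 4.0.16 (robust quasi-likelihood F test, 2-sided, R 4.3.3) with Benjamini-Hochberg adjustment over all tested genes at 0.05. The SE of a log2 fold change is its size over the square root of F. The biological coefficient of variation was 19.3%. The procedure was run on simulated counts in which few genes differed, as many up as down, with 1 common dispersion. In the data 67.4% of genes were called, so the simulation cannot show how the procedure behaves there. Alternatives used limma 3.58.1 (voom) and DESeq2 1.42.0.

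The members and lists were chosen with earlier results of these data known. Named were all members, except that the 8 other called synthetases were given as a range, and up to 3 called genes per direction from other lists. The kinase genes Eif2ak2 and Eif2ak4 were added to these. Some genes that this rule names, and 1 ratio, are not reported here. Values of markers, overlapping genes and partners in ratios are given beside them. Promoters are from RefSeq (GRCm38.p6), printed for up to 6 members holding the motif.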

Additional observations from a re-analysis of the deposited data

How the results depend on the processing

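Leaving out 1 library at a time, 8122 to 9385 genes were called, against 9073 in all libraries, and 27 to 31 members. Other settings gave 6335 genes (mean of at least 10 CPM, which left Chac1 and Pycr1 untested) to 10240 (libraries 1 and 2 only), and 23 to 33 members. The counts of members called higher and lower, and of genes called, stayed within 1.5 times under every setting run. Of 568 member values under alternatives 538 kept direction and side of the threshold, 10 lost the call, 8 gained it and 12 changed sign. A test against a 1.5-fold change kept 23 members and lost Ddit3, Iars, Nars, Sars, Tars and Yars, since it asks for more than a difference from 0. The sign changes were all in genes that did not pass. Farsa was at -0.0066 in libraries 1 and 2 only. With 1 library left out Hars ran from -0.139 to 0.0037, above 0 without EWS-OCT4 replicate 3, and it was at 0.0348 in libraries 1 and 2 only. Rars ran from -0.0647 to 0.153, below 0 without EWS-OCT4 replicate 1 or 3 or EGFP replicate 1 or 2. Cebpg ran from -0.178 to 0.139, above 0 without EWS-OCT4 replicate 3 or EGFP replicate 1 or 2, and was at 0.0471 in libraries 1 and 2 only and 0.0042 with a mean of at least 10 CPM. The cause was not tested.

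Libraries of the 2 lines numbered 1, 2 and 3 correlated with their own number at 0.04, 0.05 and 0.15 in deviations from the line means. Number 1 with number 2 of the other line gave 0.08 either way, so the numbers were not taken as a pairing. Number 3 with number 1 or 2 of the other line gave -0.10 to -0.09. The libraries numbered 3 were thus the most alike across the lines, and the cause of this was not tested. With the number as a replicate block 8968 genes and 30 members were called, all 29 and Psph (adjusted p = 0.0416). Depth limits Pycr1 and the EGFP level of Chac1.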
